A study of Arabidopsis thaliana with 15 samples.

Results

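The 48 genes described here had their highest mean transcript level in roots fixed after the third parabola of a parabolic flight, out of 16550 genes measured. A gene was chosen when its group mean of log2 expression after parabola 3 was at least 4 and lay at least 0.4 above each of the means of level flight, parabola 1 and parabola 10. The difference between the parabola 3 mean and the highest of the other means is called the excess. Because the choice used these means, every comparison of parabola 3 with another group is given below as a description of the chosen genes, without a test. By the same margin and level, 50 genes were highest after parabola 1, 157 after parabola 10 and 509 in level flight, and 44 genes were lowest after parabola 3.

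Total RNA came from whole roots of Arabidopsis thaliana seedlings, aged 10 days and grown in continuous light, and was measured on 15 Affymetrix AraGene 1.0 ST arrays. Of these, 4 held roots fixed in level flight before the first parabola, 4 roots fixed after parabola 1, 4 after parabola 3 and 3 after parabola 10. Seedlings of all groups, level flight included, had the Wassilewskija (WS) background and carried pCaMV35S:14-3-3κ:GFP, a 14-3-3κ protein fused to a fluorescent reporter and driven by a viral promoter that is active in most tissues. All were fixed with RNAlater inside Kennedy Space Center Fixation Tubes on the C-9 aircraft. The replicates of a group came from roots of a single tube, so the group cannot be told apart from its tube or from its time on the aircraft, and p-values measure the spread among pools of 1 tube. The labels give no wild-type line and no ground control with the same time in the tube.

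Values are log2 expression per probe set, so a difference of 1 is a doubling. The lowest array median over the tested genes was 3.65. Of 26 root hair markers 4 were measured (EXPA7, EXPA18, XTH26 and AT4G26010), and all 4 lay above the array median on every array. RCA, the only measured one of 8 shoot markers, also lay above it on every array, with group means of 5.44 (level flight), 5.54 (parabola 1), 5.61 (parabola 3) and 5.77 (parabola 10). No marker of endodermis, xylem, phloem, root cap or meristem was among the tested genes, so these cell types were not checked. In RNA of whole roots, more cells of a type and more RNA per cell cannot be told apart.

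A parabola takes plants through a phase of reduced gravity set between phases of raised gravity. Roots sense gravity by the settling of starch-filled plastids in the root cap, and vibration, touch and light change their transcripts as well. Whether the chosen genes share a pathway was not tested. By background knowledge, several code for plant protein families whose members are known from stress and defence responses. The DUF26 domain, with conserved cysteines, occurs in secreted proteins and in cysteine-rich receptor-like kinases. Plant C1 domain proteins are rich in cysteine and histidine residues, and jacalin-related lectins bind sugars.

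The excess ranged over the 48 genes from 0.40 to 1.82, with a median of 0.55, against a median of −0.11 over all tested genes. Over the tested genes with a parabola 3 mean of at least 4, the median was −0.16. Over the 48, the median log2 difference of parabola 3 was 0.90 from level flight, 1.03 from parabola 1 and 0.73 from parabola 10. The excess was at least 1 in 8 genes, which are AT3G46190, AT2G30660, AT5G09710, AT2G30670, AT5G09720, AT3G11390, AT5G41280 and AT2G44340, and under 0.5 in 19. Just inside the margin lay AT4G10530 (0.4003), AT4G30680 (0.402) and AT4G14390 (0.4065). Just outside lay AT3G50190 (0.3998), AT5G67340 (0.3986) and AT5G19230 (0.3716). Another 19 genes met the margin but had a parabola 3 mean under 4, led by AT3G49630 with an excess of 0.93. All but 1 of the 48 were protein coding, the exception being the transcribed pseudogene AT5G09710. In 24 genes the next highest group was parabola 10, in 15 level flight and in 9 parabola 1.

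All 4 parabola 3 arrays lay above all 11 other arrays in 19 of the 48 genes, which the choice favours, and in 0.308% of all tested genes. In 37 genes all 4 parabola 3 arrays lay above the highest other group mean, in 10 genes 3 of them did, and in AT3G50200, a DUF247 gene singled out after its values were seen, 2 did. The choice placed the parabola 3 mean above that same mean, so it largely sets these counts. They were not taken over all tested genes. Replicate 1 was the highest parabola 3 array in 33 genes and replicate 4 in 10, while replicate 3 was the lowest in 22. The mean over the 48 genes was 6.51, 6.10, 5.98 and 6.27 in parabola 3 replicates 1 to 4, against 5.02 to 5.47 in the other arrays. Replicate 3 also stood apart in 8 measured heat shock genes, whose summed log2 level was 26.1, 27.0, 35.8 and 26.0 in parabola 3 replicates 1 to 4, against 33.3 to 34.7 in level flight. The part of this in the results was not tested. Without parabola 3 replicate 1, 29 of the 48 genes were still chosen, without replicate 2 or 3, 44 were in each case, and without replicate 4, 38 were. In all, 17 genes were chosen whichever 1 of the 15 arrays was left out. The SD between parabola 3 arrays had a median of 0.35 over the 48 genes, against 0.17 over all tested genes, and in the other groups the members' median SD was 0.25 to 0.32. All tested genes here include those with a parabola 3 mean under 4, which the choice left out.

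**Figure D1:**
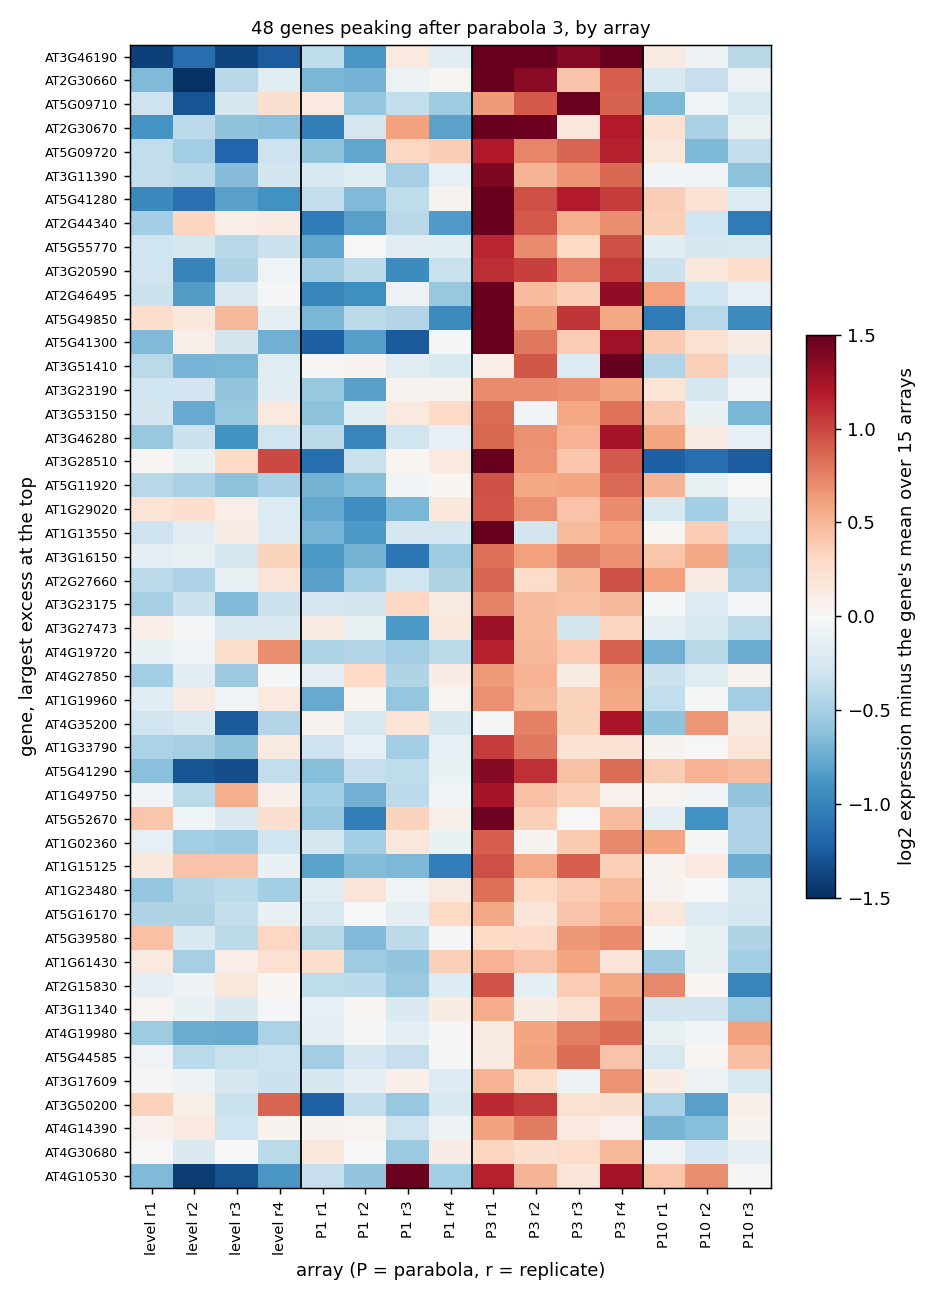
Log2 expression of the 48 genes on each of the 15 arrays, as the difference from the gene's mean over all arrays (colour, from −1.5 in blue to 1.5 in red). Rows run from the largest excess (AT3G46190, 1.82) to the smallest (AT4G10530, 0.40), and columns run from level flight to parabola 10; parabola 3 replicate 1 holds the highest parabola 3 value in 33 rows.

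Genes were also chosen by the same rule from 14 arrays, with 1 parabola 3 array left out, and the left-out array was then set against the highest other group mean. That mean took part in the choice, which required it to be low, and the left-out array shared its tube with the other parabola 3 arrays, so the values are a description and no independent check. Without replicate 1, 38 genes were chosen, and replicate 1 lay at least 0.4 above the highest other mean in 23 of them, with a median difference of 0.67. Of all tested genes 1.6% met that difference in replicate 1. For replicate 2 it was 27 of 54 genes (median 0.40, against 2.57% of all tested genes). For replicate 3 it was 18 of 56 (median 0.29, against 2.62%), and for replicate 4 it was 28 of 43 (median 0.58, against 2.27%).

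AT3G46190, a gene for a TRAF-like (MATH domain) protein, had the largest excess. Its log2 values were 3.28, 3.53, 3.29 and 3.43 in level flight, 4.30, 3.80, 4.82 and 4.52 for parabola 1, 6.73, 6.25, 6.06 and 6.46 for parabola 3 and 4.81, 4.60 and 4.25 for parabola 10. No parabola 3 array came near another group, and level flight lay below both other groups. The parabola 3 mean was 1.82 above parabola 10, which is 3.54-fold, and exceeded parabola 1 by 2.02 ± 0.18 SE and level flight by 2.99 ± 0.18 SE.

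Genes of the cysteine-rich repeat secretory (DUF26) family formed a run of 3 neighbours, AT5G41280, AT5G41290 and AT5G41300. AT5G41280 lay at 4.82, 4.67, 4.97 and 4.88 in level flight, 5.43, 5.12, 5.41 and 5.84 for parabola 1, 7.37, 6.75, 6.98 and 6.83 for parabola 3 and 6.16, 6.00 and 5.58 for parabola 10. AT5G41290 had 6.98, 6.32, 6.28 and 7.24 in level flight, 6.97, 7.27, 7.23 and 7.51 for parabola 1, 8.97, 8.71, 8.04 and 8.45 for parabola 3 and 7.98, 8.13 and 8.07 for parabola 10, and AT5G41300 had 3.41, 4.15, 3.79 and 3.35 in level flight, 2.84, 3.24, 2.81 and 4.04 for parabola 1, 5.78, 4.86, 4.45 and 5.34 for parabola 3 and 4.46, 4.30 and 4.18 for parabola 10. In AT5G41280 the parabola 3 arrays stood clear of all others, while in AT5G41290 replicate 3 lay below 2 of the parabola 10 arrays, and in AT5G41300 replicate 3 lay just below parabola 10 replicate 1. The excess was 1.07, 0.49 and 0.80 in these genes. Related tandem genes can share probe matches, and probe sequences were not analysed here.

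Of the chosen genes 4 code for C1 domain proteins. Genes of this family were not counted over all tested genes, so no share can be set beside it. AT3G11390 lay at 4.63, 4.60, 4.35 and 4.71 in level flight, 4.75, 4.81, 4.49 and 4.87 for parabola 1, 6.39, 5.50, 5.67 and 5.85 for parabola 3 and 4.95, 4.94 and 4.38 for parabola 10, and the means of its other groups lay between 4.57 and 4.76. AT5G55770 followed the same course, with 3.19, 3.23, 3.08 and 3.17 in level flight, 2.71, 3.49, 3.32 and 3.32 for parabola 1, 4.63, 4.21, 3.80 and 4.45 for parabola 3 and 3.32, 3.24 and 3.27 for parabola 10. In both genes every parabola 3 array was above every other array. Outside parabola 3, AT5G55770 lay under the lowest array median of 3.65 on every array. AT2G27660, with an excess of 0.56, and AT3G27473, with 0.55, overlapped with other groups: parabola 10 replicate 1 reached 6.60 in AT2G27660, where parabola 3 arrays lay at 6.86, 6.27, 6.46 and 6.95, and parabola 3 replicate 3 lay at 3.54 in AT3G27473, below all level flight arrays.

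Transport and small-molecule enzymes supplied other members with a large excess. AT5G09720, for a magnesium transporter of the CorA type, had 3.94, 3.79, 3.12 and 4.00 in level flight, 3.71, 3.54, 4.62 and 4.68 for parabola 1, 5.52, 5.05, 5.19 and 5.46 for parabola 3 and 4.48, 3.64 and 3.94 for parabola 10. The pseudogene AT5G09710, related to that family, had 4.55, 3.56, 4.59 and 5.10 in level flight, 5.00, 4.27, 4.49 and 4.32 for parabola 1, 5.50, 5.78, 6.33 and 5.74 for parabola 3 and 4.18, 4.79 and 4.62 for parabola 10. In both genes the parabola 3 arrays did not overlap with any other group, and the excess was 1.17 and 1.31. AT2G30660, for an enzyme of the crotonase type, had 2.32, 1.50, 2.56 and 2.81 in level flight, 2.29, 2.27, 2.89 and 3.02 for parabola 1, 5.12, 4.33, 3.41 and 3.88 for parabola 3 and 2.75, 2.63 and 2.89 for parabola 10. Both AT2G30660 and its neighbour were low outside parabola 3. The adjacent AT2G30670, for a tropinone reductase-like dehydrogenase, had 2.05, 2.54, 2.34 and 2.31 in level flight, 1.90, 2.68, 3.55 and 2.14 for parabola 1, 4.48, 4.41, 3.11 and 4.13 for parabola 3 and 3.16, 2.45 and 2.83 for parabola 10. Both were lowest among parabola 3 arrays in replicate 3, which in AT2G30670 lay below parabola 1 replicate 3 and parabola 10 replicate 1. Outside parabola 3 both lay under the array medians on every array. Their parabola 3 means, 4.19 and 4.03, were close to the level minimum of 4. AT2G30660 was not chosen without parabola 3 replicate 1, and AT2G30670 was not chosen without parabola 3 replicate 1, 2 or 4.

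**Figure D2:**
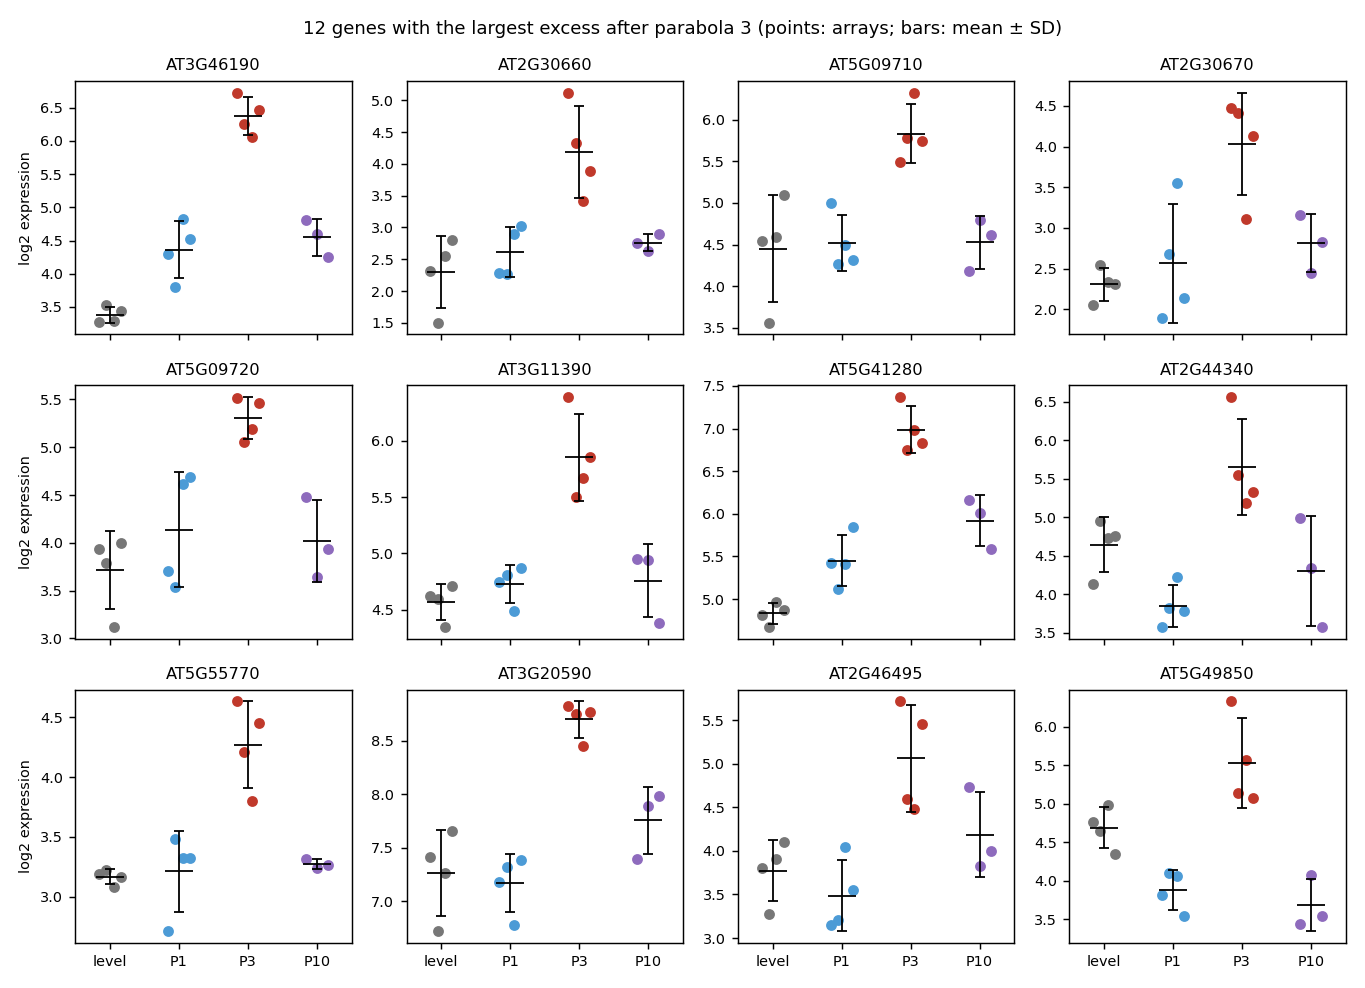
Log2 expression of the 12 genes with the largest excess (one panel each; x axis, level flight, then parabola 1, 3 and 10; points are arrays, and bars are mean ± SD of 4, 4, 4 and 3 arrays). In 10 of the 12 panels the parabola 3 arrays lie above every other array, AT2G30670 and AT2G46495 being the exceptions. The ranking by excess favours this. The same held in 19 of all 48 chosen genes and in 0.308% of all tested genes.

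Defence-linked families and cell surface proteins were represented by single genes or pairs. As with the C1 domain genes, no family named in these results was counted over all tested genes, so no share can be set beside it. AT3G20590 belongs to the family of NDR1, a membrane protein that plants need for resistance to bacteria, and had means of 7.27 ± 0.40 in level flight, 7.17 ± 0.27 for parabola 1, 8.70 ± 0.17 for parabola 3 and 7.76 ± 0.32 for parabola 10 (SD). The pair AT3G23190 and AT3G23175, both related to proteins that induce hypersensitive-like lesions, had parabola 3 values of 8.11, 8.11, 8.08 and 8.01 and of 9.62, 9.33, 9.31 and 9.36. In AT3G23190 the other arrays reached 7.61 at most and in AT3G23175 9.18, so neither gene overlapped. The VQ motif gene AT2G44340 had means of 4.64 ± 0.36 in level flight, 3.85 ± 0.27 for parabola 1, 5.66 ± 0.63 for parabola 3 and 4.30 ± 0.71 for parabola 10 (SD), and its parabola 3 arrays read 6.56, 5.55, 5.18 and 5.32, all above the other groups. Proteins with a VQ motif bind WRKY transcription factors.

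Jacalin-related lectins were AT5G49850, at 4.76, 4.65, 4.99 and 4.35 in level flight, 3.82, 4.10, 4.06 and 3.54 for parabola 1, 6.33, 5.14, 5.57 and 5.07 for parabola 3 and 3.43, 4.08 and 3.55 for parabola 10, and AT1G33790, with an excess of 0.49. In AT5G49850 level flight was the next highest group and lay above parabola 1 and parabola 10, so this gene was low in the groups on both sides of parabola 3. AT3G28510, for an ATPase of the AAA type, had a like order of means, 5.20 ± 0.49 in level flight, 4.58 ± 0.58 for parabola 1, 5.82 ± 0.56 for parabola 3 and 3.69 ± 0.06 for parabola 10 (SD), but level flight replicate 4, at 5.89, lay above 3 of the 4 parabola 3 arrays. AT4G19720, of a chitinase family that cleaves chitin of fungal walls, had means of 6.73 ± 0.37 in level flight, 6.07 ± 0.05 for parabola 1, 7.26 ± 0.36 for parabola 3 and 5.91 ± 0.18 for parabola 10 (SD). Its level flight replicate 4, at 7.23, lay above parabola 3 replicates 2 and 3.

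Enzymes of sugar and nitrogen metabolism had excesses of 0.46 to 0.64. cwINV6 (AT5G11920), a fructan exohydrolase of the cell wall invertase family, had 7.23, 7.16, 7.03 and 7.17 in level flight, 6.94, 7.01, 7.61 and 7.68 for parabola 1, 8.60, 8.22, 8.24 and 8.50 for parabola 3 and 8.16, 7.53 and 7.66 for parabola 10. All its parabola 3 arrays lay above the rest, though by only 0.06 at the nearest point. ASPGB1 (AT3G16150), an asparaginase that releases ammonium from asparagine, had 7.40, 7.42, 7.29 and 7.87 in level flight, 6.67, 6.83, 6.45 and 7.01 for parabola 1, 8.36, 8.15, 8.31 and 8.22 for parabola 3 and 7.96, 8.12 and 7.01 for parabola 10. Here parabola 3 was clear of the rest by 0.03, and parabola 1 was the lowest group. UGT73D1 (AT3G53150), a sugar transferase acting on small molecules, had means of 5.19 ± 0.40 in level flight, 5.46 ± 0.40 for parabola 1, 6.10 ± 0.41 for parabola 3 and 5.43 ± 0.55 for parabola 10 (SD), and its parabola 3 replicate 2, at 5.52, lay within the range of the other groups. CSLA03 (AT1G23480), of the glucomannan synthase family, had means of 4.57 ± 0.08 in level flight, 5.09 ± 0.16 for parabola 1, 5.55 ± 0.23 for parabola 3 and 4.99 ± 0.15 for parabola 10 (SD) with no overlap.

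Among the remaining genes with an excess of at least 0.49, AT2G46495, for a RING-type protein, had 0.88, and AT3G46280, a gene related to protein kinases, had 0.63. AT3G51410 (0.72) and AT4G35200 (0.51) code for proteins of the DUF241 family. Both were highest in parabola 3 replicate 4, and neither was chosen without that array. In each, 2 parabola 3 arrays lay above every array of the other groups. AT1G29020 (0.60), AT1G13550 (0.59), AT4G27850 (0.51) and AT1G19960 (0.51) make up the rest, and of these AT1G29020 and AT1G19960 showed no overlap. AT1G13550 reached 5.11 in parabola 3 replicate 1 and lay at 3.15 to 4.04 in the other 3 arrays. Members with a smaller excess and not further described were AT1G49750, AT5G52670, AT1G02360, AT5G16170, AT1G61430, AT2G15830, AT3G50200, AT4G14390 and AT4G30680. To these come the class III peroxidase gene AT5G39580, the salicylic acid glucosyltransferase gene UGT76B1 (AT3G11340), AT5G44585, which codes for the precursor of the signalling peptide SCOOP12, and HYH (AT3G17609), for a transcription factor of light signalling related to HY5.

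Some of the 48 lay next to each other on the chromosome. In the gene order of the assembly TAIR10.1, 11 of them (22.9%) had another of the 48 within 10 places. The same count was 8 of 50 (16%) for genes highest after parabola 1, 17 of the 155 placed genes (11%) for parabola 10 and 134 of 509 (26.3%) for level flight. These lists differ in size, and a longer list has more genes within reach of each other. Directly adjacent were AT2G30660 with AT2G30670, and AT5G41290 with AT5G41280 on one side and AT5G41300 on the other. AT5G09710 with AT5G09720 and AT3G23175 with AT3G23190 lay 2 places apart, and UGT76B1 (AT3G11340) with AT3G11390 lay 5 apart. The other tested genes within 3 places of these loci, 17 in number, had an excess between −0.28 (AT3G11385) and 0.12 (AT2G30680). Only 5 of the 17 had a parabola 3 mean of at least 4, so the others could not have met the level minimum. AT3G23180, between 2 chosen genes, had means of 7.53 (level flight), 7.62 (parabola 1), 7.61 (parabola 3) and 7.62 (parabola 10). Neighbours on the margin also occurred: AT3G50190, just outside, is adjacent in number to the chosen AT3G50200.

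**Figure D3:**
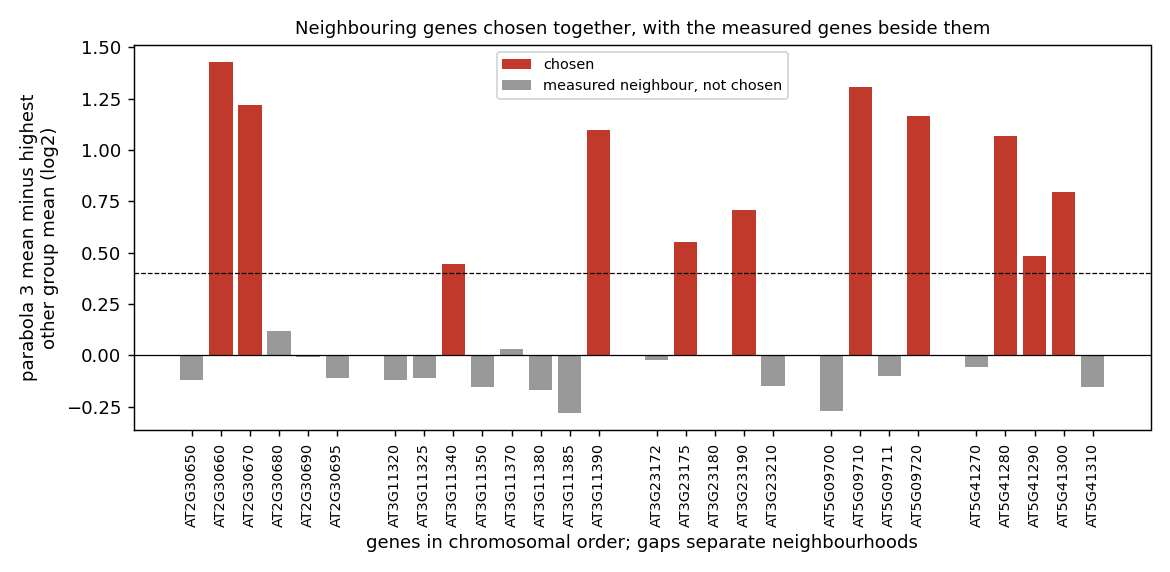
Excess of the parabola 3 mean over the highest other group mean (y axis, log2) for the 11 chosen genes with another chosen gene within 10 places (red) and for the 17 tested genes within 3 places of them (grey), in chromosomal order; the dashed line is the margin of 0.4. The grey bars lie between −0.28 and 0.12.

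The comparisons among the other groups ask whether these genes also differed before or after their peak. The choice did not use these differences, though it capped the means of all 3 groups. After parabola 1, 5 of the 48 rose against level flight and 5 fell (10.4% each, against 3.47% and 4.85% of all tested genes). After parabola 10, 8 rose and 3 fell against level flight (16.7% and 6.25%, against 7.53% and 7.11% of all tested genes). Between parabola 10 and parabola 1, 1 rose and 0 fell (2.08% and 0%, against 1.73% and 1.82%). The shares over all tested genes include dim genes, as only 7633 of them had a parabola 3 mean of at least 4. Without the dimmest 25% of genes, 4.91% were called higher and 6.55% lower after parabola 1 against level flight. After parabola 10 against level flight, 9.99% were then called higher and 9.81% lower. The median log2 fold change of the 48 was 0.02 after parabola 1 and 0.22 after parabola 10 against level flight, and 0.18 between parabola 10 and parabola 1, with medians over all tested genes of 0.01, 0.04 and 0.04. These are limma tests with Benjamini-Hochberg adjustment over all 16550 genes and a threshold of 0.05. In all, 33 of the 48 passed in neither comparison with level flight, 6 passed in both, 4 for parabola 1 only and 5 for parabola 10 only. Both comparisons share the level flight arrays. This split was not counted over all tested genes, so no share can be set beside it.

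Genes that were already higher after parabola 1 than in level flight were led by AT3G46190 (0.98 ± 0.18 SE, adjusted p = 0.00195 in limma), CSLA03 (0.51 ± 0.12 SE, 0.0092) and AT5G41280 (0.62 ± 0.16 SE, 0.0209). AT4G19980 (0.56 ± 0.16 SE) and AT3G23175 (0.43 ± 0.13 SE) also rose. Those that fell were AT1G15125 (−1.02 ± 0.18 SE, adjusted p = 0.00147), for a methyltransferase of small molecules, ASPGB1 (−0.76 ± 0.19 SE), AT4G19720 (−0.66 ± 0.17 SE), AT5G49850 (−0.81 ± 0.23 SE) and AT1G29020 (−0.65 ± 0.19 SE). AT1G15125 lay at 5.10, 5.25, 5.22 and 4.86 after parabola 1, against 6.06, 6.32, 6.33 and 5.79 in level flight, with no overlap. Of the 10 calls, AT3G46190, CSLA03 and AT1G15125 passed whichever array was left out. The count fell to 4 without parabola 1 replicate 3, to 5 without level flight replicate 1 or 2, and to 6 without level flight replicate 3 or parabola 1 replicate 1 or 4. The 7 calls lost without at least 1 array had an adjusted p of 0.0512 to 0.167 there.

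After parabola 10, AT5G41280 (1.08 ± 0.17 SE, adjusted p = 0.000277 in limma), AT5G41290 (1.35 ± 0.22 SE, 0.000375) and AT3G46190 (1.17 ± 0.20 SE, 0.000491) were still higher than in level flight. So was AT4G19980 (0.78 ± 0.17 SE), as were the subtilase gene AT4G10530 (1.44 ± 0.39 SE), cwINV6 (0.64 ± 0.18 SE), AT3G46280 (0.72 ± 0.22 SE) and CSLA03 (0.42 ± 0.13 SE). AT3G28510 fell furthest (−1.51 ± 0.31 SE, adjusted p = 0.0025), with 3.68, 3.76 and 3.65 after parabola 10, against 4.93, 4.80, 5.20 and 5.89 in level flight. AT4G19720 (−0.83 ± 0.19 SE) and AT5G49850 (adjusted p = 0.0099) fell as well, and in AT5G49850 no parabola 10 array reached the level flight arrays. AT5G41280, AT5G41290, AT3G46190, AT3G28510, AT4G19980 and AT4G19720 passed whichever array was left out. Without parabola 10 replicate 1 the count was 6 in place of 11, and AT5G49850 (0.0598), AT4G10530 (0.0574), cwINV6 (0.148), AT3G46280 (0.174) and CSLA03 (0.136) did not pass. Without parabola 10 replicate 2, AT4G10530 (0.083), CSLA03 (0.113) and AT3G46280 (0.0658) did not pass. Leaving out a level flight array ended the call of cwINV6 (replicate 3, 0.0578), of AT3G46280 (replicate 1 or 3, 0.0669 and 0.0917) and of CSLA03 (replicate 1, 2 or 4, 0.0555 to 0.0886).

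**Figure D4:**
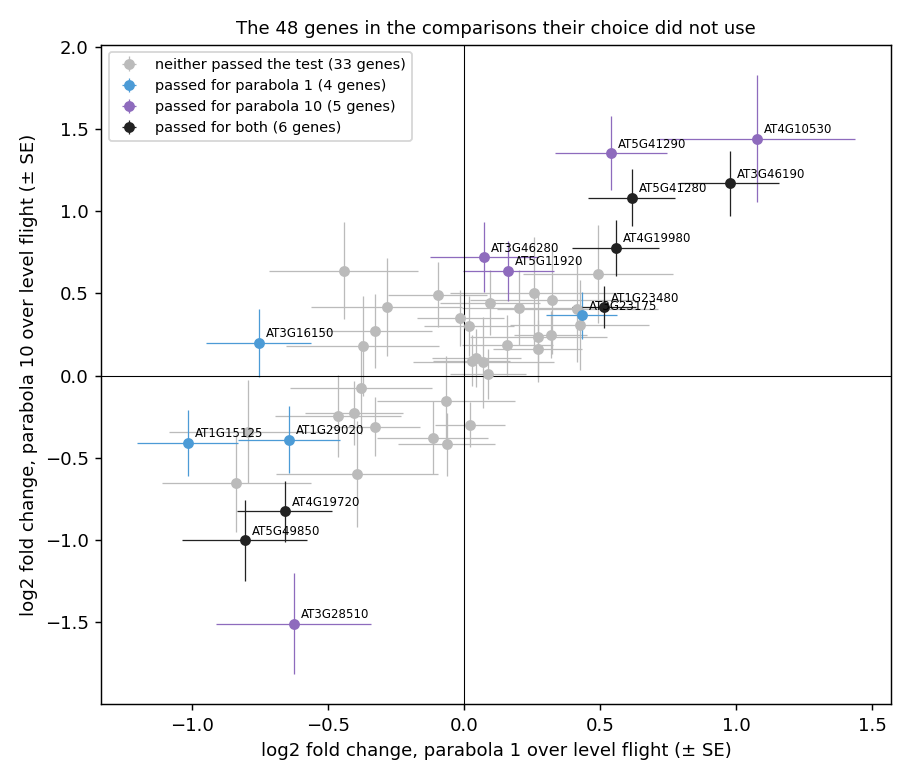
Log2 fold changes of the 48 genes after parabola 1 (x axis) and after parabola 10 (y axis), each against level flight, with SE bars; colours mark which of the 2 limma tests passed (33 neither, 4 parabola 1, 5 parabola 10, 6 both). Genes that passed both lie at the upper right (AT3G46190, AT5G41280, AT4G19980, CSLA03 as AT1G23480) or the lower left (AT5G49850, AT4G19720). How all tested genes split was not counted.

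Only ASPGB1 differed between parabola 10 and parabola 1 (0.96 ± 0.21 SE, adjusted p = 0.0161 in limma). Its values were 7.96, 8.12 and 7.01 after parabola 10, against 6.67, 6.83, 6.45 and 7.01 after parabola 1, and parabola 10 replicate 3 lay just above the parabola 1 arrays. Without parabola 10 replicate 1 or 2 it did not pass (0.0849 and 0.102), and the count of members then was 0. It also did not pass with the arrays of the 2 groups alone (0.0692). With 1 of 8 other arrays left out, 2 or 3 genes passed. These arrays were level flight replicates 2, 3 and 4, parabola 1 replicates 1 and 4, parabola 3 replicates 1 and 3 and parabola 10 replicate 3.

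None of the 48 was on the 20 lists of pathway, marker and reference genes that were drawn up for root responses. These lists were drawn up with earlier results of these data known. The shares of listed genes below are therefore a description and no independent check. Of the 243 listed loci 50 were measured. As only 0.29% of all tested genes were chosen, the absence of the 48 from these 50 says little. In 3 of the 50 the parabola 3 mean was above each other group mean, against 23.4% of all tested genes. The lists of endodermis, xylem, phloem, root cap, meristem, phosphate and jasmonate genes had no tested gene. After parabola 3, limma called 4.48% of all tested genes higher than in level flight and 6.69% lower. Of 6 calcium and touch genes it called 5 lower and 1 higher, and the higher one did not pass without parabola 3 replicate 3 or 4 or level flight replicate 1, 2 or 3. Of 8 heat shock genes 3 were called lower, and 5 without parabola 3 replicate 3. Of 5 cold and abscisic acid genes 3 were called lower, as was 1 of 5 hypoxia genes. The call for 1 of 7 auxin genes as lower did not pass without parabola 3 replicate 2 or 4 or level flight replicate 1, 3 or 4. The call for 1 of 4 root hair genes as higher did not pass without parabola 3 replicate 2. The single measured thalianol gene, AT5G47980, was called higher, with means of 3.11 (level flight), 4.88 (parabola 1), 4.01 (parabola 3) and 5.31 (parabola 10). None of 5 iron genes, 2 gravitropism genes, 4 reference genes and the single circadian, nitrate and shoot genes was called. CML38, a calmodulin-like calcium sensor, had means of 6.69 (level flight), 4.56 (parabola 1), 4.54 (parabola 3) and 4.48 (parabola 10). The zinc finger gene STZ had 9.83, 7.65, 7.80 and 7.11 in that order. Both were low in all 3 parabola groups.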

How the data were processed

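The authors' deposited table held log2 expression values for 38408 probe sets on 15 arrays and 0 columns of other samples. TAIR10, R 4.0.0, oligo, limma and RMA are listed, with no roles, per the submitters' processing notes. Filters are not stated there. RMA normalizes arrays jointly, and it can compress differences of dim genes. The platform annotation gave 1 gene to 16722 rows, several to 759 and none to 20927. For 146 genes with more than 1 row, the row with the highest mean was kept. By gene number, 16574 rows matched RefSeq genes of TAIR10.1, which supplied symbols. As that is not the submitters' build, no coordinates are given. Protein families are background knowledge, not a column of the files.

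Group means were fitted to all 15 arrays with limma 3.58.1 (lmFit and eBayes) in R 4.3.3. Tests were two-sided, with Benjamini-Hochberg adjustment over 16550 genes within each of 6 contrasts, and 0.05 as threshold. The members, lists and tests were chosen with earlier results of these data known. Named with values were the 30 genes with the largest excess, those past a test, and families with at least 3 members. The number of arrays limits the precision. Alternatives were 3 other scalings, a filter on dim genes, other fits, the replicate block, other rule settings and omission of each array.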

Additional observations from a re-analysis of the deposited data

Results flagged for a closer look

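In 144 groups of 4 arrays, from 3 groups for each of the 48 genes, a single array far from the rest was looked for with Dixon's criterion (the gap to the nearest array over the range of the group), which chance passes in about 1 in 20 groups. It was met in 2. AT4G10530 reached 6.17 in parabola 1 replicate 3, against 4.09 to 4.34 in the other parabola 1 arrays. AT3G23175 reached 9.62 in parabola 3 replicate 1, against 9.31 to 9.36 in the other parabola 3 arrays.

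Rows of the table that carry no single gene were outside the choice of genes. Of 20927 rows with no gene, 105 met the same margin and level (0.502%, against 0.29% of the tested genes), with an excess of up to 1.35. Of 759 rows with several genes, 1 met them (0.132%).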

How the results depend on the processing

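The number of chosen genes was 20 at a margin of 0.6, all of them among the 48, and 38 to 56 when 1 array was left out. It was 72 at a margin of 0.3, 67 without a level minimum, and 48 with group medians, of which 38 were shared. Median centring gave 50 genes and a repeated quantile normalization 51, both with all 48 among them, while centring on the 4 measured reference genes gave 48, of which 47 were shared. Leaving out 1 array gave 4 to 11 changed members for parabola 1 against level flight, 6 to 13 for parabola 10 against level flight, and 0 to 3 for parabola 10 against parabola 1. That last count was 2 with reference centring, 3 after the dimmest 25% of genes were dropped, 3 with trend and robust options and 4 with the replicate block.

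Over all genes, the arrays of the 2 groups alone gave 366 in place of 589 changed genes for parabola 10 against parabola 1, 160 in place of 285 for parabola 3 against parabola 1, and 69 in place of 193 for parabola 3 against parabola 10. Reference centring gave 110 for the last. Omission of 1 array gave 274 to 761, 134 to 384 and 89 to 247 for these comparisons, 1023 to 1417 and 1723 to 2472 for parabola 1 and parabola 10 against level flight, and 1369 to 1922 for parabola 3 against level flight. With reference centring 27.2% of calls after parabola 1 were higher, against 41.7% without it. For parabola 3 this share was 61.2% against 44.2% in the comparison with parabola 1, and 60.9% against 49.2% in that with parabola 10. The cause of these shifts was not tested.

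Of 22 single-gene calls, 9 passed in all alternatives run and none changed sign. Reference centring ended the parabola 1 calls of AT3G23175 (0.135), AT4G19980 (0.0706) and AT5G41280 (0.0671) and the parabola 10 call of CSLA03 (0.0906). Same-numbered arrays of different groups did not deviate together (median correlation 0.02, range −0.08 to 0.11, over 21 pairs), so the numbers are not taken as pairs. The replicate block ended the calls of AT1G29020 (0.0535) and AT3G23175 (0.0714) after parabola 1 and of CSLA03 (0.0574) after parabola 10. The arrays of the 2 groups alone ended the parabola 1 calls of AT1G29020 (0.0823) and AT3G23175 (0.0917) and the call of ASPGB1 between parabola 10 and parabola 1 (0.0692); there 1 other member passed.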
